A study of Mus musculus with 20 samples.

Results

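Genes named for proteins of the mitochondrial ribosome were taken from the brain counts of human APOE mice by their symbols alone, Mrpl or Mrps followed by a number and at most 1 letter. This gave 78 of the 55291 symbols counted, 49 named for the large and 29 for the small subunit. RNA came from the left hemi-brain of female C57bl/6 mice at 18 months of age (18 MO), with 1 library per mouse and 5 mice per group. APOE2, APOE3 and APOE4 mice were homozygous for the human allele of that name, which stands in the place of mouse Apoe and is driven by its promoter, so that no group was wild type. The 5 mice labelled APOE4D carry the genotype label APOE4, and neither the labels nor the methods state what the D stands for. No treatment is named for any group.

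The mitochondrial ribosome translates the few mRNAs that mitochondrial DNA encodes, all of which specify subunits of the oxidative phosphorylation complexes. Its rRNAs are transcribed inside the organelle, whereas all of its proteins are encoded in the nucleus, made in the cytosol and imported. Part of these proteins descend from bacterial ribosomal proteins and keep their numbers, and others were gained in the mitochondrial lineage. In neurons, whose synapses depend on oxidative phosphorylation, the supply of these proteins bears on respiratory capacity.

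Promoter windows are shown first for 6 members given by mouse below, chosen after their values were seen, because the members are transcribed from many separate loci. The 78 members lie on 17 chromosomes, and 69 of them had a window in RefSeq (GRCm38.p6), from 250 bases before to 50 bases after the start site. These windows were searched on both strands for the NRF1 core CGCATGCG, the ETS motif CCGGAAG bound by GABPA, the YY1 motif AANATGGC, the SP1 GC box GGGCGG and the TATA box TATAAA. Each is known from promoters in general, and NRF1, GABPA and YY1 are known as regulators of nuclear genes for mitochondrial proteins. Capitals mark every match to any of the 5 motifs, on either strand, in the windows of Mrps12 (chr7:28741772-28742071, minus strand), Mrpl55 (chr11:59202236-59202535, plus strand), Mrpl52 (chr14:54426659-54426958, plus strand), Mrpl34 (chr8:71464676-71464975, plus strand), Mrps24 (chr11:5707652-5707951, minus strand) and Mrpl50 (chr4:49521034-49521333, minus strand).
Mrps12: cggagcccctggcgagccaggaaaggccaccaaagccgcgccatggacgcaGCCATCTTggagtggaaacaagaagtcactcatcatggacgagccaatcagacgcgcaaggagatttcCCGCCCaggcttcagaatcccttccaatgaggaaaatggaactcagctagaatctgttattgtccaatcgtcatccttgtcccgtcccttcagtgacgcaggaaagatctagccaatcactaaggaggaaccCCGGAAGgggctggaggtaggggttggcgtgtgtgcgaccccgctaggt
Mrpl55: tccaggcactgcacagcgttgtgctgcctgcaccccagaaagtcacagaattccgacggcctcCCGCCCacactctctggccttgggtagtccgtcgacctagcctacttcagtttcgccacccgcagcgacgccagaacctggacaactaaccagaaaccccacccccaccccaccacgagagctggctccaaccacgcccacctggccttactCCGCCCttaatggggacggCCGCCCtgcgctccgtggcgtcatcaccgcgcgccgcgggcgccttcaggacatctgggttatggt
Mrpl52: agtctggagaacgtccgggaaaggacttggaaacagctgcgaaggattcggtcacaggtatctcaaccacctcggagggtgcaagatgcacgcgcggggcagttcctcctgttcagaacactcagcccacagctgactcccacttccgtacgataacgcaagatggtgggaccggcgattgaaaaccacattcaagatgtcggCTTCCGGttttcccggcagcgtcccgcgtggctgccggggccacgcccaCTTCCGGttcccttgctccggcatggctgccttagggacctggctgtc
Mrpl34: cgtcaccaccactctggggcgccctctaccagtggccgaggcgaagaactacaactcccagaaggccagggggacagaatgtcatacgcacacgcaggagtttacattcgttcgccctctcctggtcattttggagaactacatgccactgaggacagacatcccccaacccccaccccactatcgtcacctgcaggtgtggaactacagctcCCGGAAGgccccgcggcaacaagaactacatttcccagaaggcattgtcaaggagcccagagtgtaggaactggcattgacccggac
Mrps24: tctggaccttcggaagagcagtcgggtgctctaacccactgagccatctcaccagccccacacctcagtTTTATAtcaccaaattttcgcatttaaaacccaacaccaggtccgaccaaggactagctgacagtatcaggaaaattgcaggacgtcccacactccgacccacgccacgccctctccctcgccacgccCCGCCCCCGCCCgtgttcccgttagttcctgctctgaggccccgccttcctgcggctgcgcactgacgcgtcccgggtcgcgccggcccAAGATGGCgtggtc
Mrpl50: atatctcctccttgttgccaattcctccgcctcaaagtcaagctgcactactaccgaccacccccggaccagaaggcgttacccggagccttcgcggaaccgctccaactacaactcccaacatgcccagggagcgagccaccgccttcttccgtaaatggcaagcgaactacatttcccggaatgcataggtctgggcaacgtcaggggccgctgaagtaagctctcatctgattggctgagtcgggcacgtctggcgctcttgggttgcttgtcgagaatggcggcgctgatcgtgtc
The Mrps12 window holds a YY1 match at -199 to -192, a GC box at -131 to -126 and an ETS match at 2 to 8, counted from 1 at the start site. Mrpl55 holds 3 GC boxes, at -187, -35 and -16 by their first base, and none of the ETS, YY1 and NRF1 letters. Mrpl52 holds ETS matches at -47 and at 3, and Mrpl34 holds 1 ETS match at -37. Mrps24 holds a TATA box at -181, GC boxes at -53 and -47 that adjoin, and a YY1 match at 37 to 44. The Mrpl50 window matched none of the 5 motifs, and Mrpl54 had no window.

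Among the 69 members, 24 windows (34.8%) held the ETS letters, against 10.8% of the 20977 windows of all genes in the counts. The YY1 letters were in 21 windows (30.4%, against 6.45%) and the NRF1 core in 7 (10.1%, against 2.29%). GC boxes were in 34 (49.3%, against 42.3%) and TATA boxes in 4 (5.80%, against 13.3%). These shares are descriptions of letters in a fixed window, and the median GC content was 58.3% in the members' windows and 55.0% in all windows.

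Library totals ranged from 32404258 to 51960932 counts and differed between groups, from 43051666 to 51960932 in APOE3 and from 33032138 to 46887242 in APOE4. The members took 0.243% to 0.285% of the counts. Mouse Apoe, which the human gene replaces, was at 33.8 to 46.8 CPM over the 20 libraries. The summed markers of neurons, astrocytes, oligodendrocytes, microglia, endothelium and choroid plexus overlapped between APOE3 and APOE4 mice. Single markers were still called lower in APOE4, namely Slc17a7 (-0.21, adjusted p = 0.000651) and Tubb3 (-0.14, adjusted p = 0.0114) of 6 neuron markers, Aldh1l1 (-0.14, adjusted p = 0.0406) of 5 astrocyte markers and C1qa (-0.35, adjusted p = 0.0112) of 5 microglia markers, and none was called higher. Of all genes tested, 10.2% were called lower and 10.8% higher. By sign alone, 3 of the 6 neuron, 3 of the 5 astrocyte and 2 of the 5 microglia markers were above 0 in APOE4 minus APOE3. The sum of 5 blood markers (Hbb-bs, Hbb-bt, Hba-a1, Hba-a2 and Alas2) did not overlap, at 149 to 401 CPM in APOE3 and 72.9 to 121 CPM in APOE4, with all 5 genes lower in APOE4. It was 85.5 to 172 CPM in APOE2 and 74 to 219 CPM in APOE4D. The part of these markers in the results below was not tested.

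Nearly every member was well measured. Outside Mrpl53, a protein of the stalk that binds translation factors, the lowest count in a library was 287 and the highest 3793, and mean levels ran from 11 to 71.2 CPM. Mrpl53 had 1 to 12 counts per library (mean 0.173 CPM), and its gene overlaps Ccdc142, itself at 0.305 CPM. Reads in the overlap may have been assigned to neither gene, which was not tested. Per kilobase of canonical transcript, the highest levels were those of Mrpl20 (74.1 CPM per kilobase), Mrps21 (59.1) and Mrps18a (54.5), and the lowest those of Mrpl53 (0.249), Mrps28 (3.90) and Mrpl1 (3.996). Mrpl20 and Mrps21 have bacterial counterparts, and the protein of Mrps18a sits in the large subunit despite its name. Levels within a genotype varied little between mice, with a median coefficient of variation of 5.16% over the 78 members and values under 10% for 77 of them.

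Summed over the large subunit, the levels were 1674 to 1850 CPM in APOE3 (1750 ± 72.3, SD, n = 5) and 1605 to 1659 CPM in APOE4 (1631 ± 24.4, n = 5). The APOE3 and APOE4 mice did not overlap. For the small subunit they were 889 to 982 CPM in APOE3 (930 ± 41.2, n = 5) and 845 to 885 CPM in APOE4 (868 ± 14.6, n = 5), again without overlap. APOE2 had means between these, 1682 ± 25.6 CPM for the large and 907 ± 13.1 CPM for the small subunit (n = 5). It overlapped APOE3 for both subunits and APOE4 for the large one, where F35J of APOE2 was at 1652 CPM and F58M of APOE4 at 1659 CPM. APOE4D mice were at 1663 ± 38.1 and 876 ± 22.7 CPM (n = 5) and overlapped both APOE4 and APOE3 for either subunit.

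**Figure D1:**
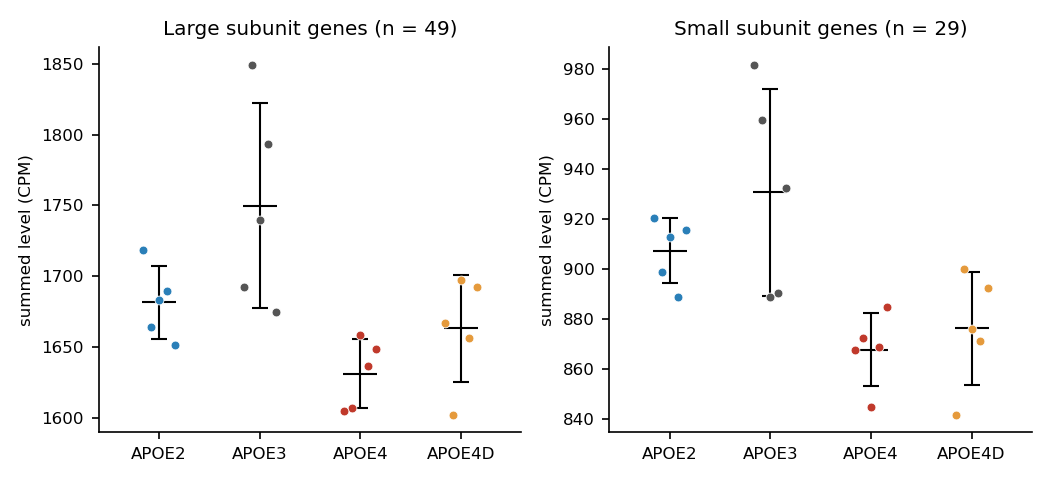
Summed level (CPM) of the 49 large and the 29 small subunit genes in each mouse (points), with the mean and SD of each group of 5 (bars). The 5 APOE3 mice sit between 1674 and 1850 CPM for the large subunit, above the 5 APOE4 mice at 1605 to 1659 CPM.

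The APOE3 group was the most spread. Mouse F39N had the highest level of all 20 mice for 30 of the 78 members and F10N for 12, while F37N (2583 CPM over all members) and F61N (2563 CPM) were within the APOE2 range of 2540 to 2638 CPM. F39N was at 2831 CPM, F10N at 2752 CPM and F64M at 2672 CPM. These 3 libraries were also the deepest of the APOE3 group, with 51960932, 47536085 and 48323038 counts. In APOE4 the deepest libraries, FH66 (46887242 counts) and FH78 (40363258 counts), had the lowest sums, 2474 and 2449.5 CPM. The part of depth was not tested. By group mean, 49 of the 78 members were highest in APOE3 and 42 were lowest in APOE4, an order not taken over all genes.

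The comparison of APOE4 with APOE3, the allele of highest and of neutral Alzheimer's risk in people, gave the most members past the threshold. With edgeR's quasi-likelihood test and an adjusted p under 0.05 over all 21022 genes tested, 25 members were lower and 1 was higher in APOE4. Of all genes tested, 10.2% were called lower and 10.8% higher. The members' median log2 fold change was -0.12, against -0.01 over all genes, with 62 members below 0 and 16 above. The changes were small, from 0.14 to 0.49 in absolute log2 value among the 26 called. In 15 of the 26 the 5 APOE4 mice did not overlap the 5 APOE3 mice. This separation rests on the same values as the calls, and its share over all genes was not taken. In bulk tissue, less RNA per cell and fewer cells of a type cannot be told apart.

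**Figure D2:**
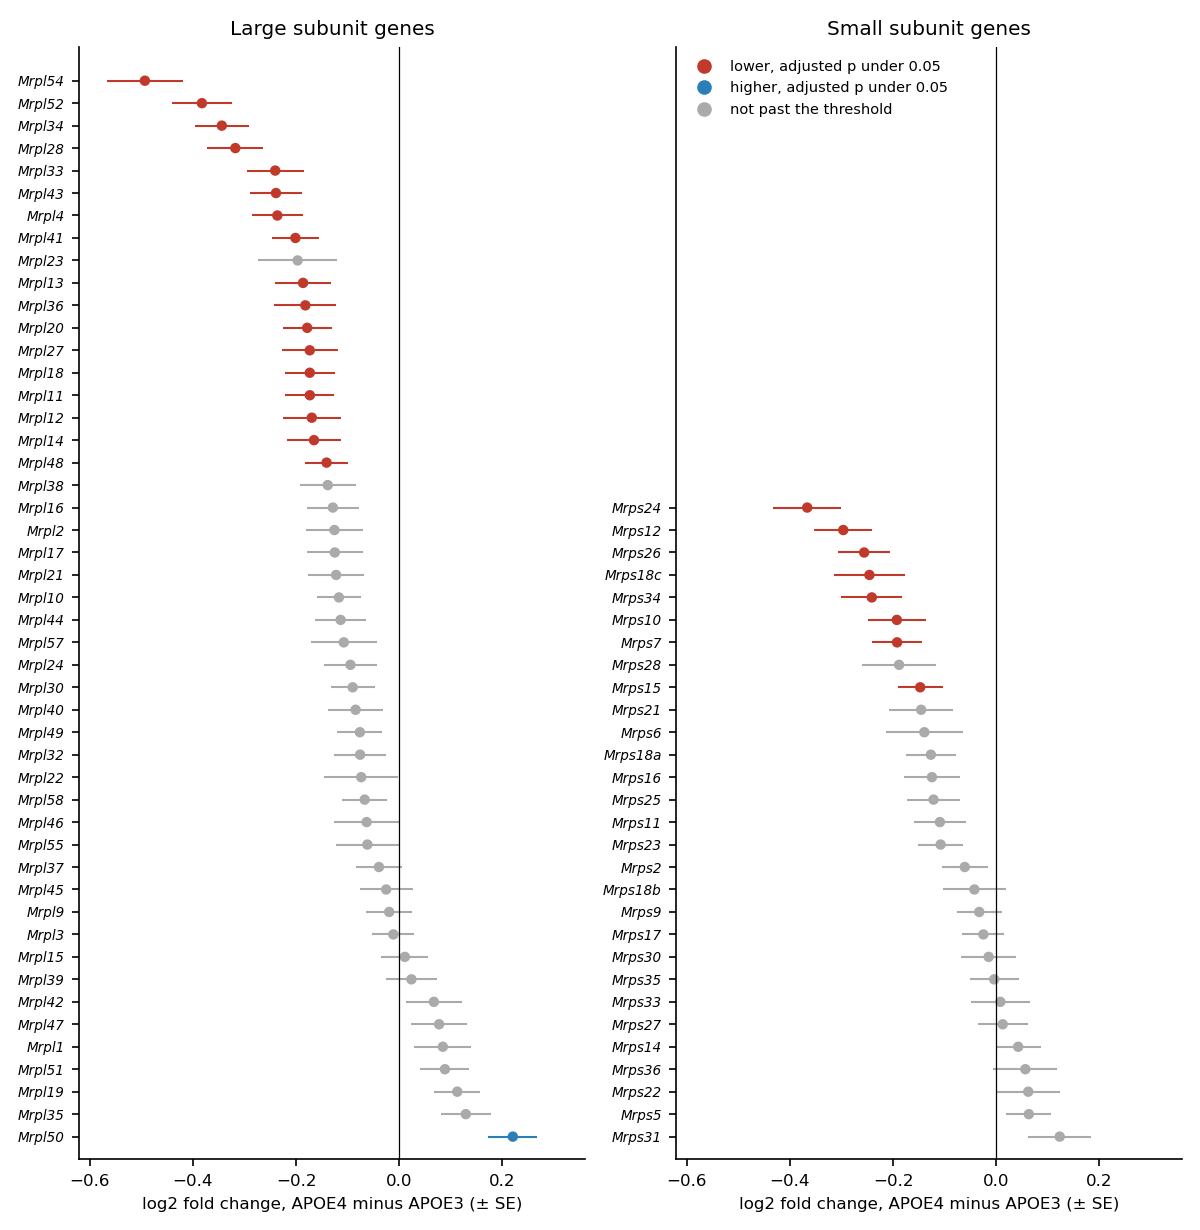
Log2 fold change of each member in APOE4 minus APOE3 with its standard error (SE), large subunit genes on the left and small subunit genes on the right, ordered by size. Mrpl53, with 1 to 12 counts per library, is not drawn. Red points mark the 25 members called lower and the blue point Mrpl50, the member called higher.

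Mrpl54, a protein of the large subunit gained in mitochondria, fell most. Its level was 20.9, 23.3, 23.7, 25.4 and 29.8 CPM in the APOE3 mice and 16.3, 17.3, 17.8, 18.1 and 18.3 CPM in the APOE4 mice. Every APOE4 mouse was below every APOE3 mouse, and F10N was the highest. The log2 fold change was -0.49 (SE 0.07, adjusted p = 6.59e-05). Mrpl52, another protein without a bacterial counterpart, was at 27.2, 27.5, 30.0, 32.2 and 32.7 CPM in APOE3 and 21.8, 22.2, 23.7, 23.7 and 23.9 CPM in APOE4. The groups did not overlap, and the log2 fold change was -0.38 (SE 0.06, adjusted p = 8.03e-05).

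Among members with bacterial counterparts, Mrpl34 was at 23.4, 23.4, 25.7, 26.9 and 27.1 CPM in APOE3. In APOE4 it was at 19.7, 19.8, 20.04, 20.1 and 20.3 CPM, below all APOE3 mice (-0.34, SE 0.05, adjusted p = 7.3e-05). Mrpl28 was at 48.0, 48.7, 50.2, 51.9 and 61.1 CPM in APOE3 and 39.3, 39.9, 43.1, 43.3 and 43.6 CPM in APOE4. F39N alone gave the highest value, and the other APOE3 mice also stayed above APOE4 (-0.32, SE 0.05, adjusted p = 0.000283). Mrpl4, a protein that reaches into the exit tunnel, was at 44.9 to 52.1 CPM in APOE3 and 37.9 to 45.3 CPM in APOE4, with F58M of the APOE4 group overlapping (-0.24, SE 0.05, adjusted p = 0.00138).

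In the small subunit, 8 of 29 members were called lower and none higher. Mrps24, the counterpart of a bacterial protein at the mRNA entry, was at 25.9, 27.0, 28.1, 31.1 and 32.0 CPM in APOE3 and 20.3, 21.5, 21.8, 22.9 and 25.4 CPM in APOE4. The groups did not overlap, although FH66 of the APOE4 group came close to F37N of the APOE3 group (-0.37, SE 0.07, adjusted p = 0.000425). Mrps12, the counterpart of the decoding protein in which streptomycin resistance arises in bacteria, was at 31.1, 35, 35.3, 36.3 and 39.8 CPM in APOE3 and 27.2, 27.4, 29.1, 30.4 and 30.9 CPM in APOE4. The highest APOE4 mouse and the lowest APOE3 mouse nearly met (-0.30, SE 0.06, adjusted p = 0.000666). Mrps26 was at 56.0 to 69.8 CPM in APOE3 and 49.8 to 54.7 CPM in APOE4, without overlap (-0.26, SE 0.05, adjusted p = 0.00097). The others called lower were Mrps7, Mrps10, Mrps15, Mrps18c and Mrps34.

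Mrpl50 was the only member called higher in APOE4. It was at 34.3, 34.4, 34.6, 36.4 and 39.4 CPM in APOE3 and 40.1, 40.7, 41, 42 and 45.1 CPM in APOE4, with no overlap. Its log2 fold change was 0.22 (SE 0.05, adjusted p = 0.00196), and its protein is one of those gained in mitochondria.

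By structure and descent the calls were spread over the ribosome. Of the 28 large subunit genes numbered after a bacterial protein, 12 were called lower, and of the 21 with later numbers 5 were lower and 1 higher. The small subunit had 5 of 16 and 3 of 13 called lower, although a later number does not always mean a protein without a bacterial counterpart, as Mrps24 shows. Of all genes tested, 10.2% were called lower, and the short lists that follow cannot be set against that share. Of the 4 stalk proteins, which recruit translation factors, Mrpl11 and Mrpl12 were called lower, and of 5 proteins of the central protuberance Mrpl18 and Mrpl48 were. Mrpl53, also of the stalk, had only 1 to 12 counts per library. None of 6 proteins listed around the polypeptide exit was called, with log2 fold changes of -0.20 to -0.03. That list leaves out Mrpl4, which reaches into the exit tunnel and was called lower. The counts of Mrpl18 and Mrpl48 are uncertain, since their genes overlap Tcp1 and Rab6a and no source used here states whether the counting used strand. In all, 24 of the 78 members overlap another RefSeq gene, among them 6 of the 26 called. Reads can also be shared with the pseudogene Mrpl48-ps, which had 48 to 104 counts per library.

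Several members matter for human disease or longevity and were followed whatever their change. Mrps34, mutated in a form of Leigh syndrome in people, was at 37.2 to 46.9 CPM in APOE3 and 33.8 to 37.3 CPM in APOE4 (-0.24, SE 0.06, adjusted p = 0.00536), with a slight overlap. Mrpl12, which also binds the mitochondrial RNA polymerase, was lower by a smaller amount (-0.17, SE 0.06, adjusted p = 0.0325). Mrps5, whose level was linked to lifespan in mouse strains, was at a log2 fold change of 0.06 (SE 0.04, adjusted p = 0.33). The values were -0.01 for Mrpl3 (adjusted p = 0.883), -0.12 for Mrps16 (0.105), 0.06 for Mrps22 (0.526), -0.06 for Mrps2 (0.364) and -0.01 for Mrps30 (0.883), a protein now placed in the large subunit. None of these 5 passed the threshold.

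Mrpl44, which has an RNase III fold and is mutated in a human cardiomyopathy, lies next to a gene with a far larger change. Its start overlaps 126 bases of Wdfy1 in the RefSeq annotation. Wdfy1 was at 47.3 to 59.4 CPM in APOE3 and 21.1 to 23.3 CPM in APOE4 (-1.22, SE 0.05, adjusted p = 4.47e-14). Mrpl44 was at 22.9 to 25.5 CPM in APOE3 and 22.1 to 24.6 CPM in APOE4, overlapping groups (-0.11, SE 0.05, adjusted p = 0.104).

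**Figure D3:**
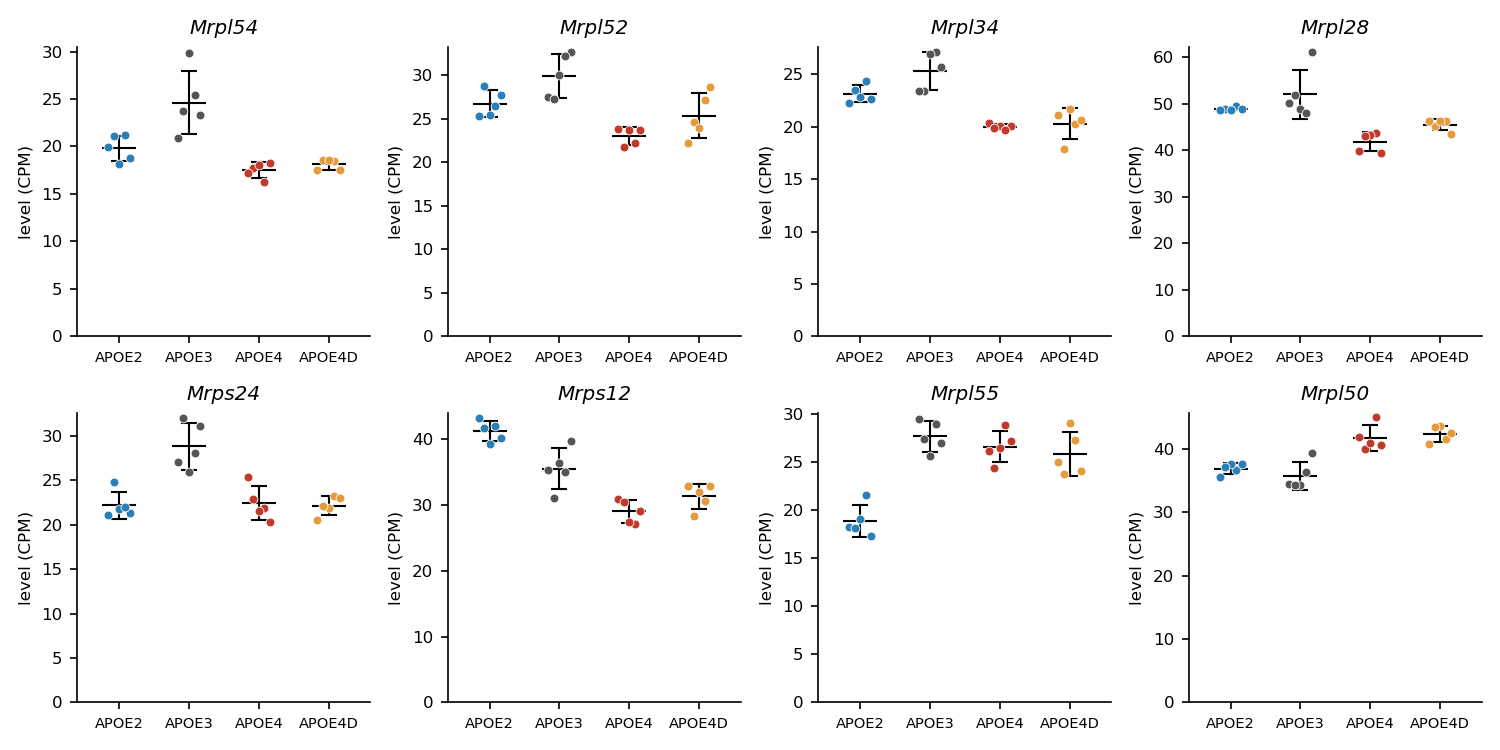
Level (CPM, axis from 0) of 8 members in each mouse (points) with the mean and SD of 5 mice per group (bars). Mrpl54, Mrpl52, Mrpl34, Mrpl28 and Mrps24 are lower in all 5 APOE4 mice than in all 5 APOE3 mice, Mrpl50 is higher, Mrps12 is highest in APOE2, and Mrpl55 is lower in APOE2 than in every other group.

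Other parts of the mitochondrial translation system were compared over lists chosen by function, beside 10.2% of all genes called lower and 10.8% higher in APOE4 minus APOE3. Of 5 further mitoribosome proteins under other names, Chchd1, Aurkaip1 and Gadd45gip1 were called lower, by 0.17 each on the log2 scale. Of 26 assembly factors 4 were lower and 2 higher, 23.1% in all, close to the 21% of all genes called. Rbfa, which binds the small subunit rRNA during maturation, was lower (-0.31, SE 0.05, adjusted p = 0.000156), while Mettl15 (0.35) and Fastkd2 (0.18) were higher. Of 15 translation factors only Taco1 was called, higher (0.25), and of 17 mitochondrial tRNA synthetases only Mars2, higher (0.45, SE 0.09, adjusted p = 0.00212). None of 11 genes of mitochondrial transcription and DNA maintenance was called. The median log2 fold changes of these lists were -0.17, -0.05, 0.00, -0.02 and 0.05, against -0.12 for the members.

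The mRNAs that this ribosome translates were tested for 10 of the 13 mitochondrially encoded genes listed. Their log2 fold changes ran from -0.91 to 0.59, with a median of 0.03 and 4 of them below 0. None was called lower, 2 (20%) were called higher, where 21% of all genes were called in either direction, and no test compared them with the members. They were mt-Nd6 (0.59, SE 0.12, adjusted p = 0.0041) and mt-Nd2 (0.26, adjusted p = 0.0263), both subunits of complex I. Among 8 transcription factors of nuclear mitochondrial genes, Gabpa (0.28, SE 0.06, adjusted p = 0.00124) and Gabpb1 (0.23, SE 0.05, adjusted p = 0.00407) were higher. These are the subunits of the factor that binds the ETS letters shown above, which 9 of 21 members called lower and 15 of the other 48 had in their windows. The YY1 letters were in 7 of the 21 and 14 of the 48, and the NRF1 core in 0 of the 21 and 7 of the 48, and these shares were not tested.

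The members' fold changes in APOE4 moved with the base composition of their transcripts. Over the 78 members, Spearman's rho of the log2 fold change was -0.55 with transcript GC content and 0.40 with transcript length, as descriptions over genes that share the same 10 libraries. The 25 members called lower had a median GC content of 51.6% and a length of 1572 bases, against 48.3% and 2245 bases for the other 53. When each library's trend with length and GC content was removed, 16 members were called lower and 1 higher, and 9 of the 25 were among the 16. The share of all genes called lower was then 5.21%, and the members' median was -0.05. Mrpl54, Mrpl52, Mrps24, Mrps26, Mrpl11, Mrpl33, Mrpl43, Mrpl48 and Mrps18c stayed lower and Mrpl50 stayed higher, although Mrps24 moved to -0.20 and Mrpl50 to 0.14. The canonical transcripts used for Mrpl54 (4069 bases) and Mrps26 (4283 bases), among others, are longer than the RefSeq spans of these genes. The trend removed for such members, and their part in the correlation with length, are therefore uncertain. Mrpl34 (-0.13, adjusted p = 0.0731), Mrpl28 (-0.12, adjusted p = 0.0619), Mrps12 (-0.08, adjusted p = 0.273) and Mrps34 (-0.002, adjusted p = 0.984) lost their calls. In APOE4D minus APOE4, groups that both carry the genotype label APOE4, Spearman's rho with GC content as counted was 0.40.

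**Figure D4:**
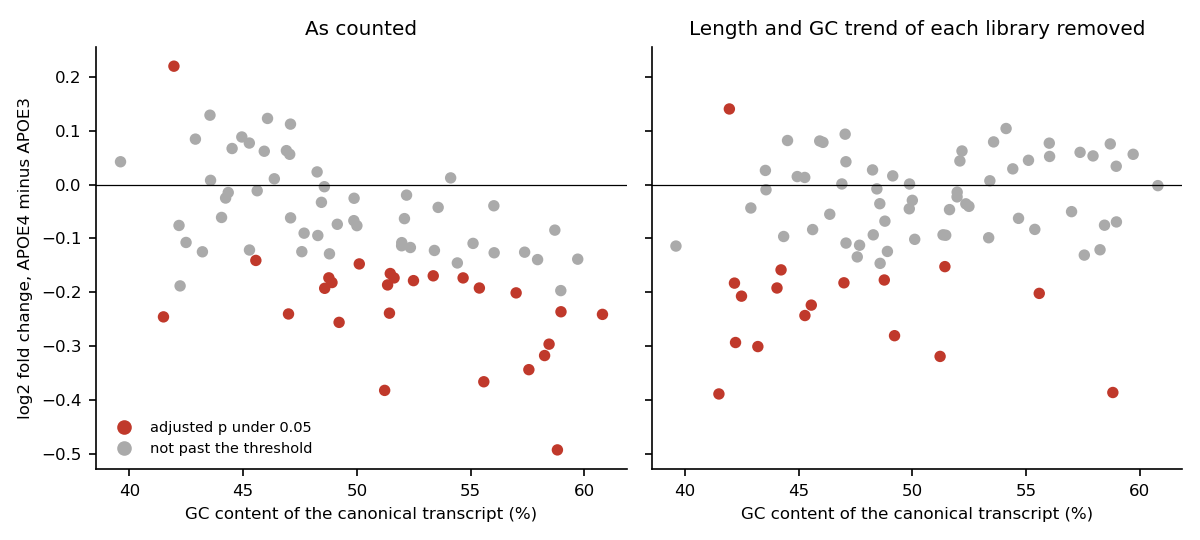
Log2 fold change of the members in APOE4 minus APOE3 against the GC content of their canonical transcript (%), as counted (left) and with each library's trend with length and GC content removed (right). Mrpl53 is not drawn. Red points passed the threshold, 26 on the left and 17 on the right, and the members of high GC content move up from left to right.

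APOE2, the allele of lowest risk, differed from APOE3 in few members. The test called 4 lower (Mrpl55, Mrps24, Mrpl54 and Mrpl43) and 1 higher (Mrps12), where 3.05% of all genes were called lower and 1.84% higher. The members' median log2 fold change was -0.04, against 0.00 over all genes. The APOE3 mice are those of the comparison above.

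Mrpl55, a protein of the large subunit gained in mitochondria, was the member with the largest difference in APOE2. It was at 17.3, 18.1, 18.3, 19.1 and 21.6 CPM in APOE2 and at 25.6, 26.9, 27.4, 28.9 and 29.5 CPM in APOE3. All APOE2 mice were below all mice of the other 3 groups (-0.55 against APOE3, SE 0.06, adjusted p = 1.09e-06, and -0.49 against APOE4, SE 0.06, adjusted p = 7.5e-06). APOE4 (24.4 to 28.8 CPM) and APOE4D (23.7 to 29.1 CPM) overlapped APOE3, with a log2 fold change of -0.06 in APOE4 (adjusted p = 0.513).

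A gene beside Mrpl55 also differed in APOE2. This gene, 2610507I01Rik, whose annotated span ends 54 bases before Mrpl55 and inside its promoter window, was at 0.540, 0.767, 0.797, 1.14 and 2.94 CPM in APOE2 and at 4.34 to 5.78 CPM in APOE3 (-1.99, SE 0.32, adjusted p = 0.00266). In both genes FH111 was the APOE2 mouse nearest to APOE3, with 21.6 CPM for Mrpl55 and 2.94 CPM for 2610507I01Rik.

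Mrps12 passed the threshold in each of the 3 comparisons between alleles. It was at 39.3, 40.1, 41.7, 41.9 and 43.2 CPM in APOE2, above all APOE4 mice (27.2 to 30.9 CPM), and overlapped only F39N of the APOE3 group at 39.8 CPM. The log2 fold change was 0.51 against APOE4 (SE 0.06, adjusted p = 7.62e-07) and 0.22 against APOE3 (SE 0.06, adjusted p = 0.0199). Sars2, the mitochondrial seryl-tRNA synthetase, is read from the same promoter region in the other direction and starts 135 bases away. It went the other way, at 11, 11, 11.7, 12 and 13.1 CPM in APOE2, below APOE3 at 13.2 to 18.9 CPM and APOE4 at 13.7 to 15.9 CPM (-0.36 against APOE3, SE 0.08, adjusted p = 0.00758). Of 20 other genes within 250 kb of Mrps12, 6 were called lower and 4 higher in APOE2 minus APOE3, among them Acp7 (0.81, SE 0.15) and Pak4 (-0.39, SE 0.07). Mrps12 and the replaced Apoe gene lie on chromosome 7, 9.04 Mb apart.

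**Figure D5:**
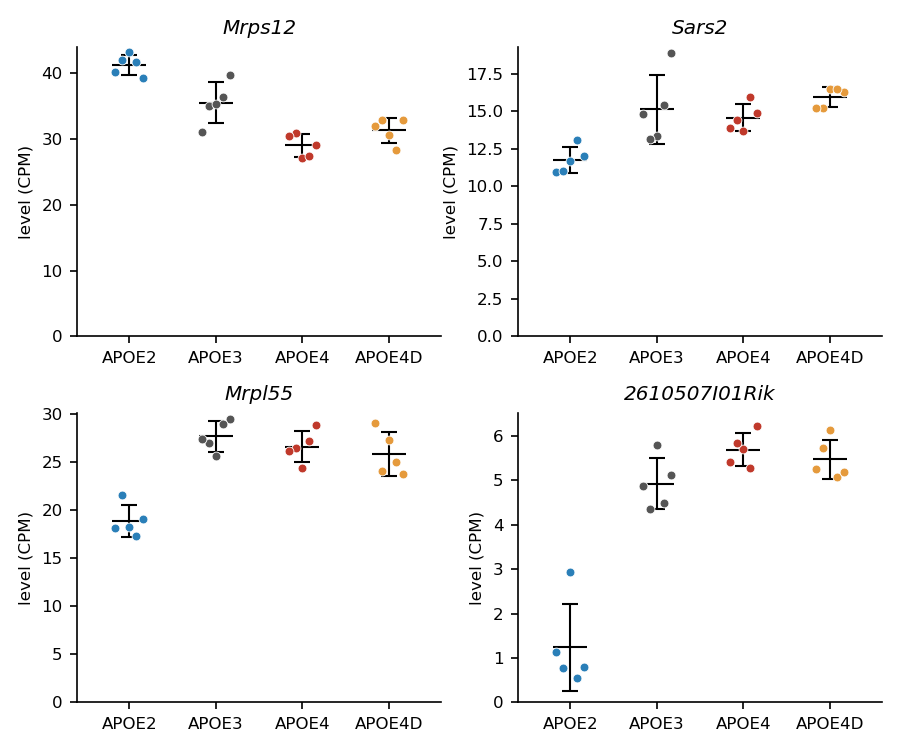
Level (CPM, axis from 0) of Mrps12 and of Sars2 near it (top), and of Mrpl55 and of 2610507I01Rik near it (bottom), in each mouse (points) with the mean and SD of 5 mice per group (bars). The APOE2 mice do not overlap the other groups in the 4 genes, Mrps12 against F39N of APOE3 excepted. In Sars2 they nearly meet, with F35J of APOE2 at 13.1 CPM and F61N of APOE3 at 13.2 CPM. FH111 is the APOE2 point nearest to the other groups in the bottom row.

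Mrps24 was lower in APOE2 than in APOE3 as well. The APOE2 mice were at 21.1, 21.3, 21.8, 22 and 24.8 CPM, below the APOE3 mice (25.9 to 32.0 CPM), with F35J the highest of them. The log2 fold changes against the same APOE3 mice were -0.38 in APOE2 (SE 0.07, adjusted p = 0.000611), -0.37 in APOE4 and -0.38 in APOE4D (SE 0.06, adjusted p = 0.000182). None of 12 other genes within 250 kb of it was called in APOE2 minus APOE3. Mrpl54 (-0.31, SE 0.07, adjusted p = 0.0106) and Mrpl43 (-0.20, SE 0.05, adjusted p = 0.0206) overlapped between APOE2 and APOE3.

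Set directly against APOE4, APOE2 had 8 members called higher and 2 lower, where 3.29% of all genes were called higher and 2.6% lower. The median over the members was 0.05 against 0.00 over all genes. Beyond Mrps12, those higher were Mrpl28 (48.7 to 49.5 CPM in APOE2 and 39.3 to 43.6 CPM in APOE4, 0.23, SE 0.05, adjusted p = 0.0108), Mrpl34 (0.21, adjusted p = 0.0132), Mrpl41 (0.18, adjusted p = 0.0167), Mrps15 (0.17, adjusted p = 0.0171), Mrpl52 (0.22, adjusted p = 0.0234), Mrpl33 (0.19, adjusted p = 0.043) and Mrps18a (0.16, adjusted p = 0.0472). In 9 of the 10 the groups did not overlap, again with no share taken over all genes. The lower ones were Mrpl55 and Mrpl50, the latter at 35.5 to 37.7 CPM in APOE2 and 40.1 to 45.1 CPM in APOE4 (-0.17, SE 0.05, adjusted p = 0.0283). With the length and GC trend removed, Mrpl34 (0.13, adjusted p = 0.103), Mrpl41 (0.11, adjusted p = 0.0743) and Mrps18a (0.09, adjusted p = 0.217) lost their calls. The fit kept 5 higher and 2 lower calls, where 3.15% of all genes were then called higher and 3.05% lower. Spearman's rho of the members' fold changes with GC content was 0.42 here, as a description over 78 genes.

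The APOE4D and APOE4 mice gave no member past the threshold. edgeR called 0 members and 0 genes (0% lower and 0% higher of 21041 tested), 9 members had an unadjusted p under 0.05, and the members' median was 0.02. DESeq2 called 0 members and 34 genes, and limma-voom called 0 of both. The median standard error of a member was 0.05 on the log2 scale.

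Against the same APOE3 mice, APOE4D had 16 members called lower and 2 higher, where 4.49% of all genes were called lower and 3.92% higher. The members' median was -0.08 against 0.00 over all genes. Mrpl54 was at 17.5, 17.5, 18.5, 18.6 and 18.6 CPM, below all APOE3 mice (-0.44, SE 0.07, adjusted p = 6.43e-05), and Mrpl34 was at 17.9 to 21.7 CPM, also without overlap (-0.32, SE 0.05, adjusted p = 0.000245). Mrpl50 was at 40.8 to 43.7 CPM and higher (0.25, SE 0.04, adjusted p = 0.000512). Mrpl19, a protein with a bacterial counterpart, was at 30.9, 31.0, 31.0, 31.3 and 31.8 CPM against 27.0, 27.3, 27.6, 27.9 and 28.5 CPM in APOE3 (0.17, SE 0.04, adjusted p = 0.00603). Its groups did not overlap, and in APOE4 its log2 fold change against APOE3 was 0.11 (adjusted p = 0.0726). Mrpl14 was at 16.1 to 18.3 CPM in APOE4D and 19.1 to 21.4 CPM in APOE3 (-0.24, SE 0.05, adjusted p = 0.00322), and its gene overlaps Tmem63b. With the length and GC trend removed, 10 members were called lower, 8 of the 16 among them, and both higher calls were kept. Of all genes, 2.99% were then called lower and 2.97% higher. The members' median was then -0.05, Mrpl34 moved to -0.16 (adjusted p = 0.036), and Mrpl28 (-0.05, adjusted p = 0.491) and Mrps12 (-0.02, adjusted p = 0.878) were among those that lost their calls. Spearman's rho with GC content was -0.42 over the 78 members.

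The counts of called members changed with the mice included. In APOE4 minus APOE3 they ran from 18 to 37 when 1 mouse was left out, lowest without FH78 and highest without F61N. They were 11 with the FH-numbered mice left out. No APOE3 mouse has an FH number, so fewer APOE4 mice and the ID series cannot be told apart in that count. In APOE4D minus APOE3 the counts fell to 7 without F12M and to 9 without either F10N or F39N. The share of all genes called in these fits is not given here, so a change particular to the members cannot be read from them. No call of a named member changed sign under the alternatives run.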

How the data were processed

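Single-read 50-base libraries of polyadenylated RNA were counted by the authors, whose deposited file holds raw counts per gene symbol. Per the submitters' processing notes, the tools were FastQC, Trimmomatic, STAR 2.7.0, featureCounts and DESeq2 on GRCm38 (mm10), and no source used here states the strand setting. The deposited normalized counts and the authors' DESeq2 comparison tables (log2 fold changes and p-values) were not used.

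A gene entered a fit if it exceeded 0.1 CPM in more than 40% of its libraries, which all 78 members did. Libraries were scaled by TMM, and edgeR 4.0.16 (R 4.3.3) fitted robust quasi-likelihood models with Benjamini-Hochberg adjustment over all genes (threshold 0.05), on 15 libraries for APOE2, APOE3 and APOE4 and on all 20 for APOE4D. Levels are TMM-scaled CPM. Whole-read totals of 32404258 to 51960932 set the counting precision. Alternatives included DESeq2 1.42.0, limma 3.58.1 (voom), sva 3.50.0, other scalings, loess removal of length and GC trends (span 0.3) and leaving out mice. Coordinates and promoters came from RefSeq (GRCm38.p6), and transcript length and GC content from GENCODE canonical transcripts, matched for 78 members, some of which run to several kilobases. The steps were tested on simulated counts.

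Named are the 8 members of smallest p per direction and comparison, the 3 highest and 3 lowest per kilobase, 9 members fixed by role and up to 3 genes per related list. The neighbours of Mrps12, Mrpl55 and Mrpl44 and members listed as called were named after their values were seen. The members and lists were chosen with earlier results of these data known. Replicates are single mice, and whether they share litters is not given.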

Additional observations from a re-analysis of the deposited data

Results flagged for a closer look

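Over the 33 members given values by group, 132 groups of 5 mice were checked for a single mouse far from the other 4, and 8 (6.06%) had one, where chance gives about 1 in 20. F35J stood apart in 4 of the 5 APOE2 cases: Mrpl28 at 49.5 CPM (others 48.7 to 48.9) and Mrps24 at 24.8 CPM (others 21.1 to 22) were high, and Mrpl12 at 55.1 CPM (others 58.1 to 59.3) and Mrps2 at 29.7 CPM (others 31.8 to 32.6) were low. Mrpl41 was high in F42N of APOE2, at 52.8 CPM (others 48 to 49). In APOE4, Mrps15 was high in FH78 at 33.6 CPM (others 30.3 to 30.5) and Mrpl44 in F58M at 24.6 CPM (others 22.1 to 22.7). Mrpl4 was high in FH51 of APOE4D, at 47.2 CPM (others 42 to 43.2).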

How the results depend on the processing

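Leaving out the FH-numbered mice, which keeps 3 mice in APOE2 and APOE4, 5 in APOE3 and 2 in APOE4D, the members called were 11 in APOE4 minus APOE3 (26 as reported), 2 in APOE2 minus APOE3 (5), 2 in APOE2 minus APOE4 (10) and 4 in APOE4D minus APOE3 (18). With the length and GC trend removed they were 17 in APOE4 minus APOE3, where 5.21% of all genes were called lower and 5.42% higher. In APOE2 minus APOE3 they were 8, where 2.16% of all genes were called lower and 1.39% higher. In a fit of only the APOE4D and APOE3 groups they were 10. With 1 mouse left out they ran from 18 (without FH78) to 37 (without F61N) in APOE4 minus APOE3, from 3 (without F10N) to 10 (without F61N) in APOE2 minus APOE3, from 5 (without F42N, FH124, FH66 or FH78) to 10 in APOE2 minus APOE4, from 7 (without F12M) to 24 (without F61N) in APOE4D minus APOE3, with 9 without F10N or F39N and 11 without FH68, and stayed at 0 in APOE4D minus APOE4. Of 933 recomputed values of 46 named calls, 781 kept the call, 152 lost it and 0 reversed, and 12 results kept it in every alternative. The share of all genes called in the fits that leave out mice is not given here. No paired analysis was possible because mouse IDs are not shared between groups. Counting depth limits Mrpl53, at 1 to 12 counts. The levels per kilobase depend on the annotated canonical transcripts.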
